A study of Mus musculus with 6 samples.

Results

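The levels of 10 genes of BAFF receptor, CD40 and TRAF signalling were compared in B cells taken from mouse lung. The genes were chosen by gene symbol, from the receptors Tnfrsf13b, Tnfrsf13c, Cd40 and Ltbr to the ligand Tnfsf13b, the adaptors Traf1, Traf2 and Traf3, the kinase Map3k14 and the inhibitor Tnfaip3. All 10 symbols were found, each on 1 row, among the 22481 genes of the deposited table. The samples compared were 3 from 5xFAD mice and 3 from wild type (WT) mice, all C57BL/6 and 3 months old. The 5xFAD strain carries human genes with familial Alzheimer's disease mutations under the Thy1 promoter, which drives expression mainly in neurons, and the WT mice carry none. The human transgenes were not analysed here. B cells were enriched from lung with magnetic beads, frozen, and sequenced as total RNA freed of ribosomal RNA. The labels do not say whether a sample is 1 animal or a pool. All p-values below therefore set the genotype difference against the spread between these samples, which may not be the spread between animals. The comparison asks whether the genes that let lung B cells receive survival and helper signals differ in level between the genotypes.

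BAFF, the product of Tnfsf13b, is a cytokine that keeps mature B cells alive. It binds the BAFF receptor (Tnfrsf13c) and TACI (Tnfrsf13b), while CD40 receives the ligand shown by helper T cells. TRAF3, together with TRAF2 and cIAP ligases, holds the kinase NIK (Map3k14) at a low level in resting cells, and receptor engagement removes TRAF3, so that NIK can drive processing of the p100 precursor encoded by Nfkb2. A20, the product of Tnfaip3, is a ubiquitin-editing enzyme that restrains the canonical NF-kB branch and is itself an NF-kB target gene.

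The libraries were shallow and mixed. Estimated counts summed to between 628581 and 782297 per library, and a single gene, Lars2, held between 37.5% and 45.7% of them. All 12 B cell markers averaged higher FPKM in 5xFAD than in WT. FPKM are fragments scaled for transcript length and library size. The marker sum ran from 436 to 783 FPKM in 5xFAD and from 335 to 428 FPKM in WT, so the genotypes did not overlap. Cd79a was the highest B cell marker (97.7 FPKM on average over the 6 libraries) and Ralgps2 the lowest (8.37 FPKM). Markers of other lung cells were also present, and no marker in the table was at 0 in all libraries. Endothelial markers summed to between 258 and 332 FPKM in 5xFAD and between 385 and 482 FPKM in WT, with all 8 averaging lower in 5xFAD. Dendritic cell markers summed to between 36.7 and 52.7 FPKM in 5xFAD and between 26.2 and 34.3 FPKM in WT, with 3 of 5 averaging higher. Most of this sum was Ccr7 (25.4 FPKM on average over the 6 libraries), while Zbtb46 and Siglech averaged lower in 5xFAD. For monocyte and macrophage markers the sums were 199.6 to 496 FPKM in 5xFAD and 220 to 369 FPKM in WT, with Lyz2 highest, and for neutrophil markers 244 to 548 FPKM in 5xFAD and 194 to 500 FPKM in WT, with S100a8 highest. Epithelial markers summed to between 170 and 226 FPKM in 5xFAD and between 178 and 385 FPKM in WT, with Scgb1a1 highest. T cell markers were sparse, at 3.48 to 8.78 FPKM in 5xFAD and 0.737 to 6.997 FPKM in WT. NK cell markers summed to 4.23 to 16.3 FPKM in 5xFAD and 5.59 to 15.9 FPKM in WT, fibroblast and smooth muscle markers to 37.5 to 120 FPKM in 5xFAD and 26.4 to 52.4 FPKM in WT, and plasma cell markers to 8.21 to 19.4 FPKM in 5xFAD and 18.1 to 23.8 FPKM in WT. Of the fibroblast markers, Col1a1 alone gave 103 FPKM in 5xFAD replicate 1. Its estimated counts there were 117, against 150 and 196 in the other 5xFAD libraries and 121, 121 and 84.2 in WT. What part these other cells have in the results below was not tested.

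**Figure D1:**
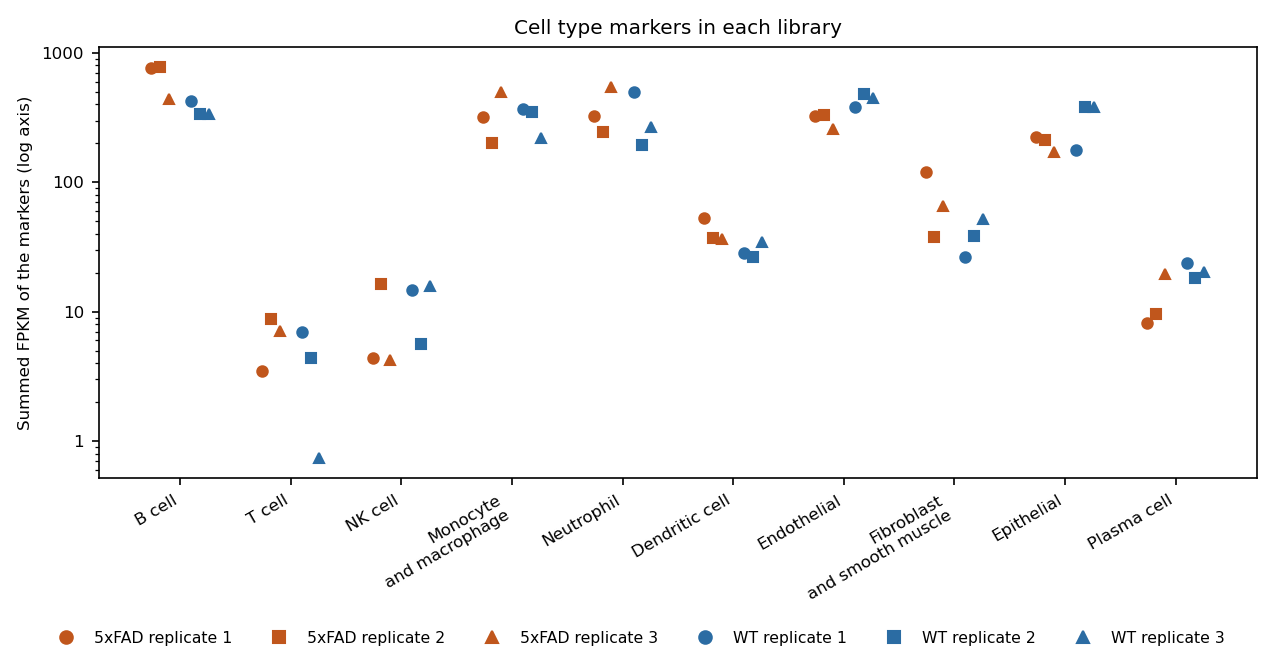
Summed FPKM (log axis) of the markers of 10 cell types in each library, with 5xFAD in orange to the left and WT in blue to the right of each list. B cell markers lie between 436 and 783 FPKM in 5xFAD and between 335 and 428 FPKM in WT, and endothelial markers lie the other way round.

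None of the 10 genes passed the test across all genes. In edgeR's quasi-likelihood test with Benjamini-Hochberg adjustment, 0 of the 9 genes tested had an adjusted p under 0.05. The share was 0.114% of all 9651 genes tested (0.104% higher and 0.0104% lower in 5xFAD). DESeq2 also called 0 of the 9. Limma called 0 as well, but it called 0 of all 9651 genes, so its 0 says nothing about these 9. Tnfsf13b lay under the filter, a mean of 1 FPKM over the 6 libraries, and is given by value. The other 9 averaged above that level within each genotype. At an unadjusted p under 0.05, 3 of the 9 were higher in 5xFAD (Traf3, Map3k14 and Cd40) against 8.46% of all genes tested, and 0 were lower against 3.55%. DESeq2 gave the same 3 genes at an unadjusted p under 0.05. Limma on log2(FPKM + 1) also gave 3, but with Tnfrsf13b (unadjusted p = 0.0408) in place of Map3k14 (unadjusted p = 0.106), and limma on log2(FPKM + 0.1) gave 1, Cd40. The log2 fold change was positive for 6 of the 9, where 54.1% of all tested genes were positive. Their median was 0.53, against 0.11 for all tested genes. The count of 3 became 0 without 5xFAD replicate 1, and 2 without 5xFAD replicate 2, without WT replicate 2 or without WT replicate 3.

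**Figure D2:**
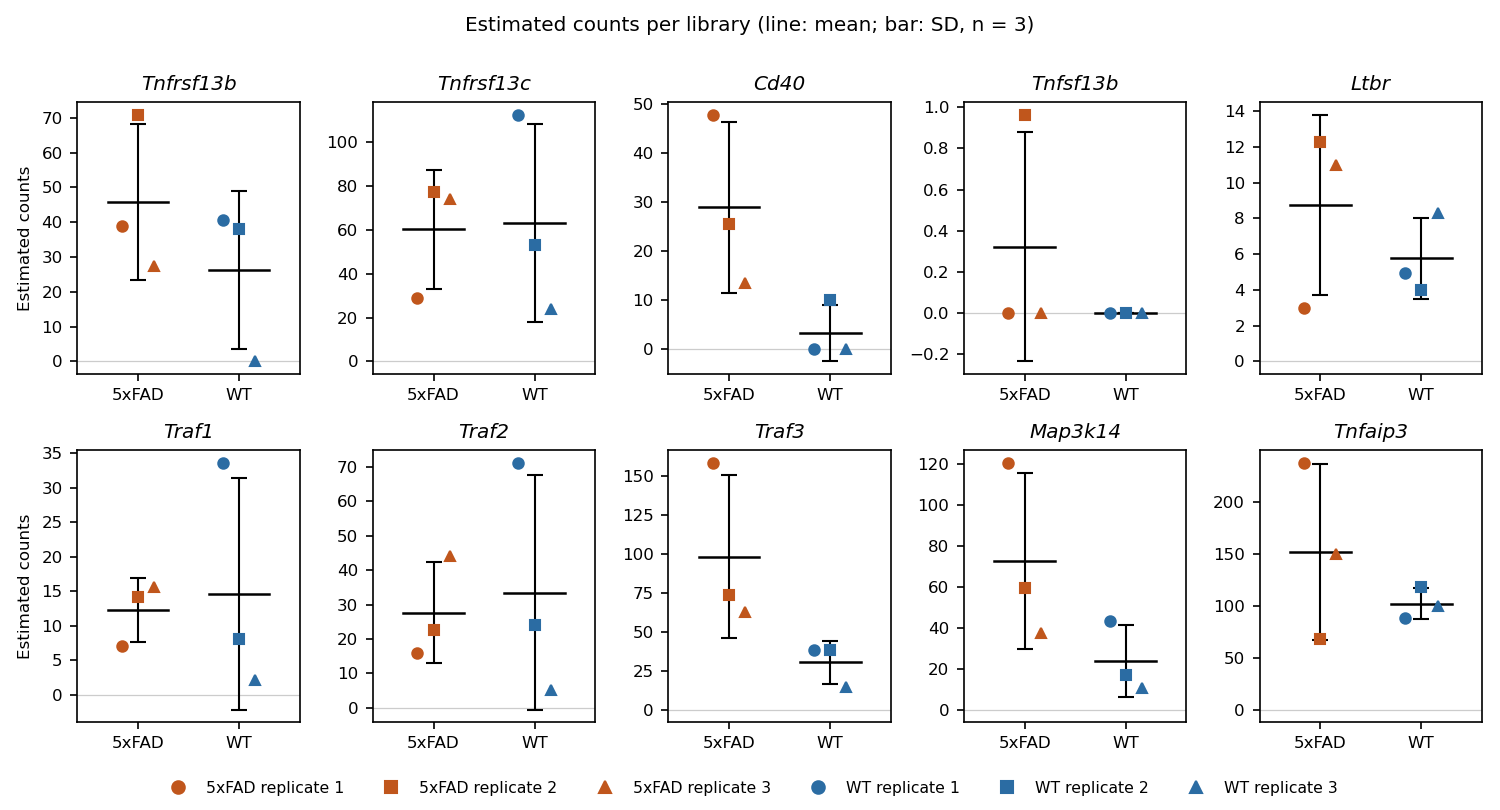
Estimated counts of the 10 genes in each library, with 5xFAD left of WT, the mean as a line and the SD (n = 3) as a bar. Cd40 and Traf3 have every 5xFAD library above every WT library, while the genotypes overlap for the other 8.

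Levels per length differed between the 10 genes. Over the 6 libraries the median was 19.1 FPKM for Tnfaip3 and 17.6 FPKM for Tnfrsf13c, followed by Tnfrsf13b at 11.3 FPKM, Cd40 at 8.19 FPKM and Map3k14 at 7.05 FPKM. Traf3 had a median of 4.397 FPKM, Traf2 of 3.19 FPKM, Traf1 of 3.01 FPKM and Ltbr of 2.42 FPKM. Tnfsf13b had a median of 0 FPKM. Each gene's range over libraries overlapped that of its neighbour in this order, except for Ltbr (lowest 0.749 FPKM) and Tnfsf13b (highest 0.601 FPKM).

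CD40 showed the widest separation between genotypes among the receptors. Cd40 (ENSMUSG00000017652, GRCm38 chromosome 2, 165055627 to 165072948) had 47.9, 25.5 and 13.5 estimated counts in the 5xFAD libraries, against 0, 10.04 and 0 in the WT libraries. On the length-normalized scale these were 17.98, 15.3 and 11.02 FPKM in 5xFAD and 0, 5.36 and 0 FPKM in WT. The genotypes did not overlap on either scale, with 5xFAD above. Among all tested genes, 5xFAD lay wholly above WT for 12.4% on normalized counts and for 13% on FPKM, and wholly below for 5.89% on normalized counts and 4.42% on FPKM. Of the 9 members tested, 2 lay wholly above on each scale (Cd40 and Traf3) and 0 wholly below. The log2 fold change was 3.06 (SE 1.34, 95% interval 0.43 to 5.68; edgeR unadjusted p = 0.0303, adjusted p = 0.358, and 0.216 to 0.981 over the alternatives), and its size depends on how a count of 0 is treated. A listed 0 allows up to 3 counts by counting error alone, which is 4.48 CPM (counts scaled to the library total) in WT replicate 1 and 4.77 CPM in WT replicate 3. The estimate ran from 2.29 to 7.86 as single libraries were left out, with the highest value without WT replicate 2, the 1 WT library with Cd40 counts. Without 5xFAD replicate 1 it was 2.29 (edgeR unadjusted p = 0.226).

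TACI was counted in 5 libraries and listed at 0 in the other. Tnfrsf13b (ENSMUSG00000010142, chromosome 11, 61126755 to 61149372) had 38.9, 70.9 and 27.5 estimated counts in 5xFAD, against 40.5, 38.2 and 0 in WT. The genotypes overlapped, with a fold change of 0.71 in log2 units (SE 0.88; edgeR adjusted p = 0.820). Without WT replicate 3, the library at 0, it was 0.04. On FPKM it had 47.3, 22.0 and 9.55 FPKM in 5xFAD and 8.26, 13.1 and 0 FPKM in WT, and the genotypes overlapped again. The difference of mean log2(FPKM + 1) was 2.16 (SE 0.94; limma adjusted p = 0.396). It averages logs over libraries, so it is not the same measure as the fold change of 0.71. The BAFF receptor itself, Tnfrsf13c (ENSMUSG00000068105, chromosome 15, 82221744 to 82224339), had 28.9, 77.6 and 74.3 counts in 5xFAD and 113, 53.2 and 23.9 in WT. It averaged 16.7 ± 7.52 FPKM in 5xFAD and 17.5 ± 12.7 FPKM in WT (SD, n = 3 each). The genotypes overlapped, and the log2 fold change of -0.19 (SE 0.57; edgeR adjusted p = 0.941) leaves a 95% interval from -1.32 to 0.93, which still holds changes of more than 2-fold downwards. Without WT replicate 1, the library with the most counts, it was 0.45.

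The lymphotoxin beta receptor and BAFF, both known mainly from stromal and myeloid cells, gave few counts. Ltbr (ENSMUSG00000030339, chromosome 6, 125306571 to 125313885) had 2.99, 12.3 and 11.01 counts in 5xFAD, against 4.94, 4.02 and 8.32 in WT. The genotypes overlapped (log2 fold change 0.39, SE 1.46; edgeR adjusted p = 0.953). Tnfsf13b (ENSMUSG00000031497, chromosome 8, 10006633 to 10035999) was listed at 0, 0.964 and 0 counts in 5xFAD and at 0 in all 3 WT libraries. BAFF transcripts were thus not detectable in 5 of 6 libraries at this depth, although macrophage and neutrophil markers were present in each.

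Among the adaptors, Traf3 was the one with separate genotypes. Traf3 (ENSMUSG00000021277, chromosome 12, 111159850 to 111267153) had 159, 73.8 and 62.4 estimated counts in 5xFAD, against 38.6, 38.2 and 14.6 in WT. Each 5xFAD library stood above each WT library, and 5xFAD replicate 1 stood far above the rest. The log2 fold change was 1.66 (SE 0.57, 95% interval 0.54 to 2.77; edgeR unadjusted p = 0.00714, adjusted p = 0.290, and 0.167 to 0.942 over the alternatives). Without 5xFAD replicate 1 it was 0.92 (edgeR unadjusted p = 0.164). The table's locus for Traf3 also holds 4930595D18Rik on the opposite strand, which was listed at 0 in all 6 libraries.

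Traf1 and Traf2 had overlapping genotypes. Traf1 (ENSMUSG00000026875, chromosome 2, 34941750 to 34961772), an NF-kB target that pairs with TRAF2, had 6.98, 14.2 and 15.6 counts in 5xFAD, against 33.6, 8.04 and 2.08 in WT. Traf2 (ENSMUSG00000026942, chromosome 2, 25517982 to 25546940), which recruits the cIAP ligases to TRAF3, had 15.96, 22.7 and 44.0 counts in 5xFAD, against 71.2, 24.1 and 5.20 in WT. For both genes WT replicate 1 was the highest and WT replicate 3 the lowest of all 6 libraries, so the 5xFAD values lay inside the WT range. Their log2 fold changes were -0.33 (SE 1.22) and -0.34 (SE 0.85), with edgeR adjusted p = 0.953 and 0.928, and without WT replicate 1 they were 1.11 and 0.78.

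The kinase NIK had a difference of about the same size as Traf3. Map3k14 (ENSMUSG00000020941, chromosome 11, 103219762 to 103267745) had 121, 59.6 and 37.6 counts in 5xFAD, against 43.5, 17.1 and 10.4 in WT. In FPKM it averaged 10.8 ± 4.89 in 5xFAD and 4.44 ± 3.89 in WT (SD, n = 3 each). The lowest 5xFAD library lay below the highest WT library, so the genotypes overlapped. The log2 fold change was 1.63 (SE 0.67, 95% interval 0.32 to 2.95; edgeR unadjusted p = 0.0216, adjusted p = 0.331, and 0.125 to 0.998 over the alternatives), and 0.85 without 5xFAD replicate 1 (edgeR unadjusted p = 0.301). Its locus also holds 1700028N14Rik on the same strand, which the table does not list. Whether reads of the pair can be told apart was not examined. The inhibitor A20 was the member with the most counts. Tnfaip3 (ENSMUSG00000019850, chromosome 10, 19000910 to 19015657) had 237, 68.1 and 149.5 counts in 5xFAD, against 88.0, 118 and 99.8 in WT. Its 5xFAD libraries included both the highest and the lowest of the 6, with a fold change of 0.53 in log2 units (SE 0.45; edgeR adjusted p = 0.716). Without 5xFAD replicate 1 it was -0.12.

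Replicates 1 and 3 held most of the extreme 5xFAD values. Of the 9 genes tested, 4 had their highest 5xFAD value in replicate 1 (Cd40, Traf3, Map3k14 and Tnfaip3). The lowest 5xFAD value lay there for 4 others (Tnfrsf13c, Ltbr, Traf1 and Traf2). Replicate 3 likewise held the highest 5xFAD value for 4 and the lowest for 4. The same shares over all tested genes were not examined. In WT, 5 of 9 were highest in replicate 1 and 6 of 9 lowest in replicate 3, the library with the lowest total. The 3 genes with an unadjusted p under 0.05 are thus among those highest in 5xFAD replicate 1, and for each the estimate without that library was positive but smaller.

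The proximal promoters of Traf3, Map3k14 and Tnfaip3 are shown because the first 2 had the smallest p-values among the members with a promoter in the RefSeq-based table (GRCm38.p6) and the last is the most abundant member. Each runs from 250 bases before to 50 bases after the start site, 5′ to 3′ on the strand of the gene, and capitals mark matches to the kappaB consensus, searched on both strands. Traf3 on the plus strand is at chr12:111166120-111166419, Map3k14 on the minus strand at chr11:103267352-103267651, and Tnfaip3 on the minus strand at chr10:19015361-19015660.
Traf3: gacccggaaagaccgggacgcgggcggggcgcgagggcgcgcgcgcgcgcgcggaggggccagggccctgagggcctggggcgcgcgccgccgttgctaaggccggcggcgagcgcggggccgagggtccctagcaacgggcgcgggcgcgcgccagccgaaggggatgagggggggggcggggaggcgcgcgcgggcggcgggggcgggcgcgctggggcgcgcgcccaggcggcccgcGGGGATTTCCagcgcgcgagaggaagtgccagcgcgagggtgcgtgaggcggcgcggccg
Map3k14: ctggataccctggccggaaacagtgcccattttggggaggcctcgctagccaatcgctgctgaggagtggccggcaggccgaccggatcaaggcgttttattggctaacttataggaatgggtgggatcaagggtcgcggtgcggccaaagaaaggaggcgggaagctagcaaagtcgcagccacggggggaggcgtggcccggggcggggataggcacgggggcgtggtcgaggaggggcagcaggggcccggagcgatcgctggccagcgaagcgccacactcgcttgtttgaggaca
Tnfaip3: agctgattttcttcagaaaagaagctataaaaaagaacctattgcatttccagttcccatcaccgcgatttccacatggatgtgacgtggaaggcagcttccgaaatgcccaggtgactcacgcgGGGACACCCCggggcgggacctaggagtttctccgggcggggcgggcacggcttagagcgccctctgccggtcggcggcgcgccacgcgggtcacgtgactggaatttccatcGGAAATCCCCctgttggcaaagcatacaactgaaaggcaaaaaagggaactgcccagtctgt
The Traf3 match begins 10 bases before the start site, and the Tnfaip3 matches begin 125 and 12 bases before it. Map3k14 held no match in this window. Of the 9 members with a promoter in the table, these 2 of 9 held a match in any of their promoters, against 9.55% of all 27025 genes with one. A match is a description of the letters and not a binding site.

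The edgeR fold change of counts and limma's difference of mean log2(FPKM + 1) had opposite signs for 4 of the 9 genes tested (Tnfrsf13c, Ltbr, Traf1 and Traf2). The share was 15.7% of all tested genes. These measures differ in scale and also in how libraries are averaged. Mean FPKM was lower in 5xFAD, as mean counts were, for Tnfrsf13c (16.7 against 17.5) and Traf2 (4.02 against 5.00). For Ltbr and Traf1, mean FPKM and mean counts went opposite ways. FPKM scale counts by transcript length, and the lengths used in each library are not given in the sources used here, so counts per FPKM were compared between libraries. For Lars2 the ratio was between 7.60 and 7.61 in all 6 libraries, so the libraries share a scale. For Tnfrsf13c it was between 3.58 and 3.69. Traf3, however, had 1.95 counts per FPKM in 5xFAD replicate 1 and between 9.06 and 13.7 in the other libraries. The 81.2 FPKM listed for Traf3 in 5xFAD replicate 1, against 6.21 and 4.54 FPKM in the other 5xFAD libraries and 4.26, 2.78 and 1.06 FPKM in WT, thus gives a wider gap between libraries than the counts. Its annotated transcripts (5 in GENCODE M21) run from 645 to 7060 bases. Tnfrsf13b had 0.822 counts per FPKM in 5xFAD replicate 1 and 2.88 to 4.91 in the other 4 libraries with counts. Ltbr had 0.620 in WT replicate 1 and between 2.18 and 3.999 elsewhere. The highest ratio was 7.04 times the lowest for Traf3, 6.45 times for Ltbr and 5.96 times for Tnfrsf13b. Among 4098 genes with at least 5 counts in every library, 42.4% had a ratio of more than 2 between libraries.

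**Figure D3:**
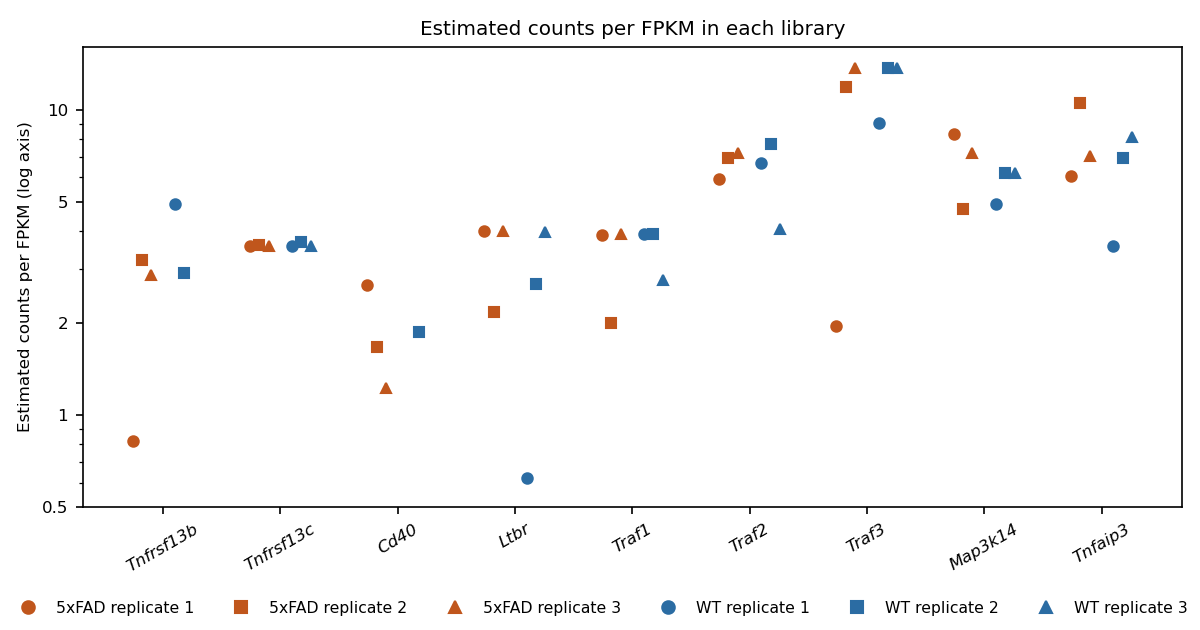
Estimated counts per FPKM (log axis) of 9 genes in each library with a value above 0, with 5xFAD in orange to the left and WT in blue to the right. Tnfrsf13c stays between 3.58 and 3.69, while Traf3 is at 1.95 and Tnfrsf13b at 0.822 in 5xFAD replicate 1.

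**Figure D4:**
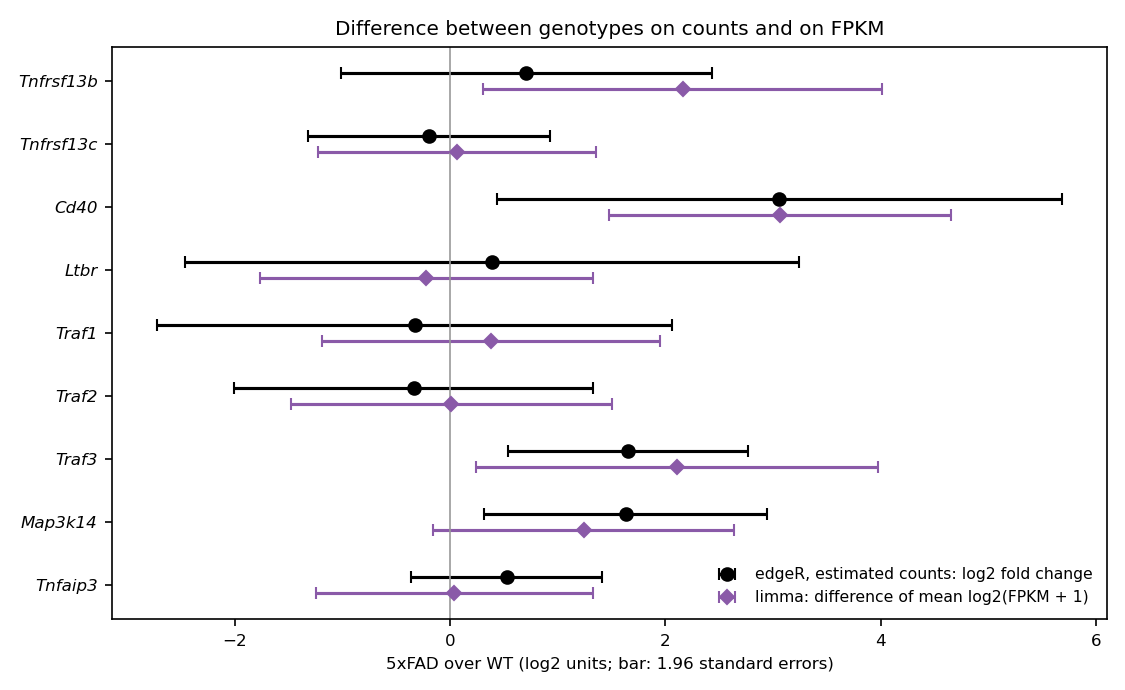
Difference of 5xFAD over WT in log2 units for the 9 genes tested, from edgeR on estimated counts (circles) and from limma on log2(FPKM + 1) (diamonds), with bars of 95% intervals. Cd40, Traf3 and Map3k14 lie above 0 on counts, and Tnfrsf13b lies higher on FPKM (2.16) than on counts (0.71).

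Because B cell markers were also higher in 5xFAD, the counts of each gene were set against the summed counts of the 12 B cell markers in the same library. In bulk RNA, fewer B cells and less B cell RNA per cell cannot be told apart. On counts set against markers, no member had separate genotypes. Cd40 stood at 1.55%, 0.799% and 0.751% of the marker counts in 5xFAD, against 0%, 0.872% and 0% in WT. Its 5xFAD range on counts held the 1 WT library in which Cd40 was counted. With FPKM in place of counts on both sides, Cd40 stood at 2.38%, 1.95% and 2.53% in 5xFAD, against 0%, 1.58% and 0% in WT, and the genotypes did not overlap. Traf3 stood at 5.13%, 2.31% and 3.47% in 5xFAD, against 2.28%, 3.31% and 1.06% in WT, and Map3k14 at 3.90%, 1.87% and 2.09% in 5xFAD, against 2.57%, 1.48% and 0.756% in WT. The mean ratio was 3.55 times that of WT for Cd40, 1.64 times for Traf3 and 1.63 times for Map3k14, and the spread between libraries was about as wide as these differences for the last 2. The other 6 tested genes had mean ratios between 0.542 and 0.878 times those of WT. Tnfrsf13c, a gene of mature B cells, stood at 0.935%, 2.43% and 4.13% in 5xFAD and at 6.66%, 4.62% and 1.74% in WT. What part the amount of B cell RNA has in the higher Cd40, Traf3 and Map3k14 counts was not tested further.

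**Figure D5:**
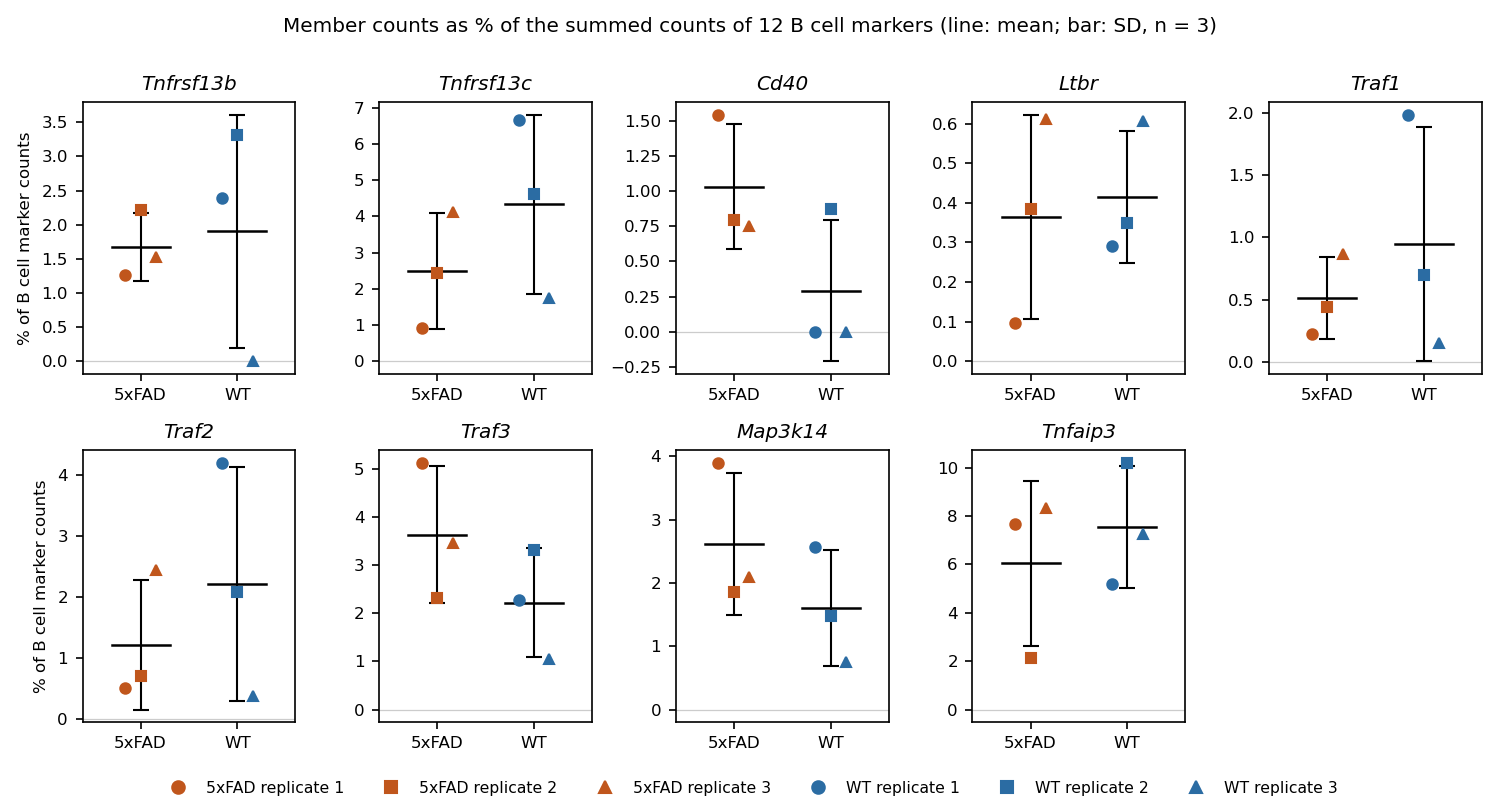
Counts of 9 genes as a percentage of the summed counts of 12 B cell markers in each library, with 5xFAD left of WT, the mean as a line and the SD (n = 3) as a bar. The genotypes overlap for each gene, including Cd40 (0.751% to 1.55% in 5xFAD, 0% to 0.872% in WT).

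Among 50 other genes of the same pathways, 46 were tested and 1 passed, Nfkb2, which encodes the p100 precursor that NIK acts on. It had 37.3, 69.0 and 94.5 estimated counts in 5xFAD and was listed at 0.00324, 0.00345 and 0.00338 in WT (edgeR adjusted p = 0.00301). Values so far under 1 read can be failed estimates and were rounded to 0 for the test, so no fold change is given. The gene passed the filter on low values only through its 5xFAD libraries, so its call rests on the genotype where it is high. The table's locus also holds Psd. With limma on log2(FPKM + 1) the adjusted p was 0.180, within a range of 1.26e-06 to 0.210 over all alternatives. In all, 6 of the 46 were higher at an unadjusted p under 0.05, against 8.46% of all tested genes, and 3 were lower, against 3.55%. A positive log2 fold change was found for 32 of the 46, against 54.1% of all tested genes. Their median was 0.26, against 0.11 for all tested genes. The KEGG NF-kappa B pathway of the deposited annotation, which holds 9 of the 10 members, shares 22 genes with this list. Of its 65 other tested genes, 6 were higher and 2 lower at an unadjusted p under 0.05, with 1, again Nfkb2, passing the adjustment. These counts lie near the shares of 8.46% and 3.55% among all tested genes.

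Among the genes with positive fold changes, those next to Nfkb2 in p-value were a transcription factor, 2 kinases and a deubiquitinase, none of which passed the adjustment. Rel, the c-Rel subunit that B cells need for proliferation, had 154, 95.5 and 61.5 counts in 5xFAD and 11.9, 34.1 and 38.5 in WT (log2 fold change 1.78, SE 0.58; edgeR adjusted p = 0.267, and 0.0861 to 0.844 over the alternatives). Map3k7, the TAK1 kinase of the canonical branch, had 99.7, 37.8 and 47.7 counts in 5xFAD and 21.7, 8.04 and 23.9 in WT (log2 fold change 1.72, SE 0.72; edgeR adjusted p = 0.337, and 0.210 to 0.988 over the alternatives). Without 5xFAD replicate 1 the log2 fold change was 1.19 for Rel (edgeR unadjusted p = 0.0846) and 1.01 for Map3k7 (edgeR unadjusted p = 0.258). On estimated counts these 2 genes did not overlap between genotypes, with 5xFAD above, as for 12.4% of all tested genes. The same held for Usp25, a deubiquitinase, with 86.8, 93.6 and 84.4 counts in 5xFAD and 45.5, 25.1 and 39.5 in WT (edgeR adjusted p = 0.386). It held too for Ikbkb, the IKK-beta kinase, with 138, 227 and 145 counts in 5xFAD and 55.6, 78.6 and 108 in WT (edgeR adjusted p = 0.390). On FPKM, Rel and Usp25 again did not overlap, while Map3k7 (limma unadjusted p = 0.180) and Ikbkb (limma unadjusted p = 0.359) did.

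Ligands and a plasma cell receptor gave few counts. Cd40lg, the CD40 ligand made mainly by activated T cells, was listed at 0 in all 3 5xFAD libraries, against 21.7, 6.03 and 0 counts in WT (edgeR adjusted p = 0.302). Tnfrsf17, the BAFF and APRIL receptor BCMA of plasma cells, was listed at 0 in all 3 5xFAD libraries, against 20.8, 5.02 and 0 counts in WT (edgeR adjusted p = 0.306). Siva1, a gene of receptor-induced apoptosis, was likewise listed at 0 in 5xFAD, against 12.9, 2.01 and 0 counts in WT (edgeR adjusted p = 0.343). For these 3 genes the genotypes touched at 0, since WT replicate 3 had no counts either. All 3 passed the filter on low values only through WT, so their p-values rest on the genotype where they are high. Tnfsf13, which encodes APRIL, was listed at 0 in all 6 libraries, but its locus in the table holds 3 genes, so the division of reads there is uncertain. Lta was listed at 1.99, 0 and 2.75 counts in 5xFAD and 0 in WT. Ltb, the membrane-bound partner of lymphotoxin, was plentiful and overlapped between genotypes, at 36.5 ± 3.10 FPKM in 5xFAD and 30.5 ± 14.6 FPKM in WT (SD, n = 3 each; log2 fold change 0.01, SE 0.51; edgeR adjusted p = 0.998).

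The 5 most abundant genes of the pathways, Ltb among them, overlapped between genotypes. Birc3, the cIAP2 ligase that acts with TRAF2 on NIK, had 49.6, 70.6 and 75.6 FPKM in 5xFAD and 31.1, 53.4 and 255 FPKM in WT. Mcl1, a survival protein of the BCL2 family, averaged 54.2 ± 15.0 FPKM in 5xFAD and 52.4 ± 12.3 FPKM in WT (SD, n = 3 each). Traf3ip3, a TRAF3-interacting adaptor, had 47.4, 68.6 and 60.0 FPKM in 5xFAD and 5.48, 14.7 and 75.9 FPKM in WT (log2 fold change 1.02, SE 0.58; edgeR adjusted p = 0.503, and 0.0802 to 0.845 over the alternatives). Without WT replicate 3 its log2 fold change was 2.09 (edgeR unadjusted p = 0.00104, adjusted p = 0.0802), and without WT replicate 1 it was 0.65. Tax1bp1, which helps A20 restrain NF-kB, averaged 28.5 ± 6.20 FPKM in 5xFAD and 34.8 ± 5.70 FPKM in WT (SD, n = 3 each). The loci of Mcl1 and Traf3ip3 in the table hold 33 and 3 genes, so the division of reads there is uncertain.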

How the data were processed

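RNA was sequenced from magnetically enriched lung B cells of 3 5xFAD and 3 WT samples. Tools listed per the submitters' processing notes were HISAT2 2.0.4, cutadapt 1.9.3, Cuffdiff and Cufflinks, with GRCm38 and mm10 as builds. What each tool did, the annotation release and whether counting used strand are not given in the sources used here. One deposited table holds FPKM and estimated counts per gene and sample, per the file headers. Genes were grouped by symbol (22564 rows, 22481 symbols) and samples by the genotype in their titles.

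Estimated counts were rounded and tested with edgeR 4.0.16 in R 4.3.3 (quasi-likelihood test, TMM library scaling, genotype as the only term) over 9651 genes, those averaging 1 FPKM or more, with Benjamini-Hochberg adjustment over all of them. SE was taken from the fold change and its F statistic, as their size ratio |log2 fold change|/sqrt(F), and gives the 95% intervals. Limma 3.58.1 on log2(FPKM + 1), DESeq2 1.42.0 and other filters and scalings were alternatives. The script was tested on simulated data. Pairs of replicates differed beyond sampling noise (chi-square 7.05 to 18.5 per degree of freedom), so none was a copy. The floor of 3 counts covers counting error only. Both the test and the floor used the deposited counts, which already share a scale over libraries. Starts of loci were raised by 1.

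Named by rule were all 10 members and, of the other pathway genes, up to 5 per direction with the smallest unadjusted p under 0.05, the 5 most abundant, 4 ligands and BCMA. Of the markers, the highest and lowest were named for B cells, and single genes for some of the other lists. Members and lists were chosen with earlier results of these data known.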

Additional observations from a re-analysis of the deposited data

How the results depend on the processing

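For the 10 signalling genes, 0 were called under any of 16 alternatives, and of 141 estimates for the 9 tested, 126 kept their direction. The 15 that did not belong to 5 genes. With limma on log2(FPKM + 1) and on log2(FPKM + 0.1), the difference was 0.067 and 0.079 for Tnfrsf13c, -0.22 and -0.34 for Ltbr, 0.38 and 0.60 for Traf1 and 0.015 and 0.10 for Traf2. Leaving out single libraries gave -0.61 to 0.45 for Tnfrsf13c, -0.88 to 1.11 for Traf1, -0.92 to 0.78 for Traf2 and -0.12 to 0.81 for Tnfaip3.

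Over all genes the 11 calls became 7 with DESeq2 size factors, 27 with upper-quartile factors, 63 with DESeq2, 0 with limma at either pseudocount (1148 and 1118 genes at an unadjusted p under 0.05), 62 without a filter, 5 from a mean of 5 FPKM and 6 with shared loci summed, and between 3 and 75 with single libraries left out (3 without 5xFAD replicate 1, 75 without WT replicate 3). The cause was not tested. Limma at either pseudocount also ended the call of Nfkb2, leaving 0 of 46 other pathway genes (5 and 4 genes at an unadjusted p under 0.05).

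Named genes near 0 changed sign. Ltb was at -0.0306 with DESeq2 size factors, -0.0303 with DESeq2, -0.0402 with upper-quartile factors, -0.0409 from a mean of 5 FPKM, and at -0.30 to 0.44 with single libraries left out. Birc3 was at -0.0074 with upper-quartile factors, -0.23 with limma at either pseudocount, and -0.19 to 0.32 with single libraries left out. Tax1bp1 was at -0.014 with upper-quartile factors, -0.29 and -0.30 with limma, and -0.10 to 0.22 with single libraries left out, and Mcl1 at -0.088 to 0.37 with single libraries left out.

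No pairing of samples by equal replicate numbers was seen. Deviations from the genotype means correlated at 0.0153, 0.0218 and -0.0169 between libraries of the same number, and 5xFAD replicate 3 correlated best with WT replicate 2. With few and shallow libraries, these correlations cannot exclude a shared preparation. With the replicate block 26 genes were called, 0 of them members, and the estimates were 0.30 for Traf1 and 0.023 for Traf2. A common biological coefficient of variation of 0.752 and the low counts limit what single genes can show.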

Other observations

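Surface and survival genes that CD40 or BAFF signals are known to induce in B cells were read from the list of other pathway genes after their values were seen. Fas, the death receptor of activated B cells, had 3.99, 11.4 and 9.17 estimated counts in 5xFAD, against 1.98, 1.004 and 0 in WT, with no overlap between genotypes, as for 12.4% of all tested genes with 5xFAD above (edgeR adjusted p = 0.568). It passed the filter on low values only through 5xFAD, and its locus in the table holds 8 genes. Icam1, an adhesion molecule, had 80.8, 29.3 and 85.3 counts in 5xFAD, against 79.1, 48.2 and 36.4 in WT. Cd86, a costimulatory ligand, had 77.8, 17.97 and 36.7 counts in 5xFAD, against 59.3, 19.1 and 0 in WT. Cd83, an activation marker, had 65.8, 84.2 and 94.5 counts in 5xFAD, against 106, 44.2 and 7.28 in WT, and Cd80 was listed above 0 in 1 library of each genotype. The genotypes overlapped for Icam1, Cd86, Cd83 and Cd80.

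Of the BCL2 family in the list, Mcl1 is described above and neither Bcl2l1 nor Bcl2 had an unadjusted p under 0.05. Bcl2l1, which encodes BCL-xL, had 23.9, 35.0 and 51.4 counts in 5xFAD, against 12.9, 18.1 and 19.8 in WT (log2 fold change 0.95; edgeR adjusted p = 0.727). Bcl2 had 26.9, 70.9 and 57.8 counts in 5xFAD, against 66.2, 90.4 and 103 in WT (log2 fold change -0.92; edgeR adjusted p = 0.485). On normalized counts, 5xFAD lay wholly above WT for Bcl2l1, as for 12.4% of all tested genes. For Bcl2 it lay wholly below, as for 5.89%, although the counts before library scaling overlapped (70.9 in 5xFAD against 66.2 in WT). On FPKM the genotypes overlapped for Bcl2 and did not for Bcl2l1.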
